A study of Mus musculus with 12 samples.

Results

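Interferon-stimulated genes and the genes that process antigen for presentation on MHC class I were followed in cultured mouse embryonic fibroblasts. The set held 42 named genes, and every symbol matched 1 Ensembl ID among the 48709 IDs of each count table. RNA sequencing libraries came from fibroblasts of the C57BL/6 strain in 4 groups of 3 samples. Isogenic wild-type (WT) and TAZKo fibroblasts were each taken from normoxia and, as separate samples, after 24 h of hypoxia. TAZKo denotes cells lacking tafazzin, the mitochondrial acyltransferase, encoded by Taz, that remodels the inner-membrane lipid cardiolipin. All cells grew in DMEM with fetal bovine serum, and the oxygen level of the hypoxia workstation was not given in the labels. Neither the way the knockout was made nor the number of clones or animals behind each line was given. The labels did not say whether the 3 samples of a group were separate cultures, so p-values measure only the spread between these samples, which may be technical.

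Interferon-stimulated genes form the transcriptional answer of a cell to type I and type II interferon and to viral nucleic acid. RIG-I-like receptors and their adaptor MAVS activate IRF3 and IRF7, secreted interferon signals through JAK kinases, and a complex that holds STAT2 and IRF9 binds interferon-stimulated response elements (ISREs) in the promoters of its targets. Fibroblasts keep many of these genes at a low tonic level without infection. The antigen processing genes on mouse chromosome 17, Psmb8, Psmb9, Tap1 and Tap2, encode catalytic subunits of the immunoproteasome and the peptide transporter that fills class I molecules, and are inducible by interferon.

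The promoters of the members were read first, because the element that the pathway uses can be seen in them. RefSeq promoter sequences (build GRCm38.p6, 250 bases before to 50 after a start site) were matched for 31 of the 42 members, as 35 promoters. The core of the ISRE was searched on both strands as GAAA, any 2 bases and GAAA, with overlapping matches counted separately. It was present in 14 of the 35 member promoters and in 1131 of all 32851 mouse promoters of the same length (3.44%). Per gene, 45.2% of the 31 matched members held it, against 3.99% of all genes. The interferon gamma activated sequence, searched as TTC, any 3 bases and GAA, which reads the same on both strands, was present in 9 of 35 member promoters (25.7%) against 8.30% of all promoters. These matches describe letters in a fixed window and were not tested for binding. The 8 stretches below show the core (capitals) in genes whose levels are given in the sections on each role. Isg15 carries 3 overlapping matches, Ifit1 and Ifit3 carry 2 separate ones, and the nearly identical stretches of Irgm2 and its neighbour Igtp carry 1.
Isg15 promoter, chr4:156200835-156200936, minus strand: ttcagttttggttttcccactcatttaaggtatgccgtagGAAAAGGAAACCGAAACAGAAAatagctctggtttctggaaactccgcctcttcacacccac
Ifit1 promoter, chr19:34640745-34640853, plus strand: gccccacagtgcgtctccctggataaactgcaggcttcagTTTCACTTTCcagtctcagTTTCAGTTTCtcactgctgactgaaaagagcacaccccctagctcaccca
Ifit3 promoter, chr19:34583333-34583456, plus strand: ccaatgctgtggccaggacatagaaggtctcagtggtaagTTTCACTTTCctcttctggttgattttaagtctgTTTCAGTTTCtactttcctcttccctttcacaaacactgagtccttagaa
Gbp2 promoter, chr3:142620564-142620653, plus strand: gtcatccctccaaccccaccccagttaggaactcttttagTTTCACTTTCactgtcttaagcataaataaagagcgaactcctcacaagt
Irgm2 promoter, chr11:58214873-58214962, plus strand: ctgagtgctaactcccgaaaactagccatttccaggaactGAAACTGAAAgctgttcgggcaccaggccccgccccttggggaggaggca
Rsad2 promoter, chr12:26456523-26456612, minus strand: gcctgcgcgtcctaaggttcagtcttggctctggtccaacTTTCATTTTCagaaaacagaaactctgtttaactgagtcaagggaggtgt
Stat2 promoter, chr10:128270248-128270325, plus strand: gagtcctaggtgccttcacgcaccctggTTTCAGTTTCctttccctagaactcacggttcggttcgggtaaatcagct
Bst2 promoter, chr8:71537547-71537642, minus strand: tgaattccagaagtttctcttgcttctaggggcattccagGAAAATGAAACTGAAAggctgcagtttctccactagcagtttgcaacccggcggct

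**Figure D1:**
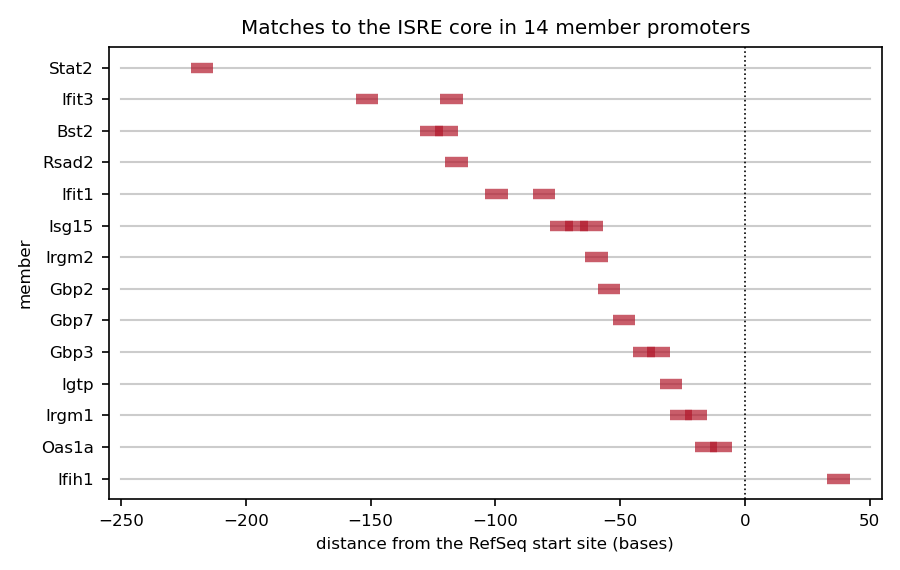
Positions of the ISRE core in the 14 member promoters that hold it, as distance from the RefSeq start site in bases; each red bar is 1 match of 10 bases and overlapping matches are darker. Most matches lie within 160 bases before the start site, Stat2 has its match farthest upstream at -222 and Ifih1 has its match after the start site at 33.

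Depth, labels and cell identity bear on all values. Total counts ran from 21039451 to 31204510 per library, and levels are given as CPM, the read count of a gene scaled to the library size after TMM adjustment. Taz, the gene named by the label, was at 37.996, 33.3 and 32.7 CPM in normoxic WT cells, 45.8, 39.8 and 40.95 in normoxic TAZKo cells, 25.5, 26.4 and 23.5 in hypoxic WT cells and 33.6, 32.8 and 35.1 in hypoxic TAZKo cells. It was not lower in the libraries labelled TAZKo but higher, by log2 0.29 (SE 0.08, adjusted p 0.0139) in normoxia and 0.43 (SE 0.08, adjusted p 0.00112) in hypoxia in the edgeR test. A gene-level count does not show whether the transcript is functional, and the deleted stretch was not given, so TAZKo below means the libraries labelled TAZKo. The 9 fibroblast markers summed to 10025 to 13100 CPM over all 12 libraries. Single fibroblast markers differed in both directions. Of 8 tested, 5 were higher and 2 lower in TAZKo in normoxia by edgeR (log2 -1.33 to 1.24). In hypoxia 4 were higher and 2 lower (log2 -1.39 to 1.24). Ptprc, the pan-leukocyte marker, had 1 count in 1 library, and Adgre1 and Siglech had none. Of 10 leukocyte and macrophage markers 4 were tested, and 1 was higher and 1 lower in TAZKo in each condition by edgeR. Their log2 differences ran from -0.88 to 2.45 in normoxia and from -1.21 to 2.95 in hypoxia. With hypoxia 3 of the 4 rose and 1 fell in each genotype. The 10 leukocyte and macrophage markers summed to 10.9 to 11.4 CPM in normoxic WT cells, 11.9 to 12.3 in normoxic TAZKo cells, 19.6 to 24.4 in hypoxic WT cells and 16.7 to 18.8 in hypoxic TAZKo cells. Epithelial markers, mainly Krt14 and Krt18, summed to 345 to 430 CPM in normoxic WT cells, 196 to 211 in normoxic TAZKo cells, 315 to 345 in hypoxic WT cells and 255 to 258 in hypoxic TAZKo cells. Endothelial markers summed to 18.03 to 21.01 CPM in normoxic WT cells, 5.64 to 7.48 in normoxic TAZKo cells, 14.5 to 20.5 in hypoxic WT cells and 3.84 to 5.05 in hypoxic TAZKo cells. Of 3 tested endothelial markers, 1 was higher and 2 lower in TAZKo in normoxia by edgeR (log2 -1.69 to 1.38). In hypoxia 2 were lower. The part of these marker differences in the results was not tested. WT normoxia sample 1 stood apart from samples 2 and 3 of its group, with a chi-square per gene of 36.9 and 43.9 against 5.79 between those samples, and counts without it are given with each comparison. To a lesser degree sample 1 also stood apart in WT hypoxia (13.8 and 14.1 against 3.71) and in TAZKo normoxia (8.72 and 11.1 against 2.92). In TAZKo hypoxia the values were alike, from 4.74 to 5.4. In bulk RNA, fewer cells that express a gene and less RNA per cell cannot be told apart.

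The first question was whether these genes differ between the genotypes before and after hypoxia. Most did, and nearly all in 1 direction. Interferon-stimulated and antigen processing transcripts were higher in cells labelled TAZKo. Of the 37 members with enough counts to test, 24 were higher and 0 lower in TAZKo in normoxia at an adjusted p under 0.05 (edgeR quasi-likelihood test, Benjamini-Hochberg over 14408 genes). Over all genes tested, 15.6% were higher and 14.9% lower. The count of lower members was 1 at an unadjusted p under 0.05 and 0 by DESeq2. In hypoxia 25 members were higher and 1, Ifit2, was lower, beside 15.8% higher and 16.9% lower over all genes. The median log2 difference of the tested members was 0.70 in each condition, against 0.01 in normoxia and -0.01 in hypoxia for all genes. The same 22 members passed as higher in both conditions. Among the 33 members with a mean of at least 1 CPM, 23 were higher in each condition. Among the 31 tested members under 10% for both shared sequence and overlapped exons, 20 were higher in each condition. Without WT normoxia sample 1, 27 members were higher and 0 lower in normoxia, and 26 higher and 2 lower in hypoxia.

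**Figure D2:**
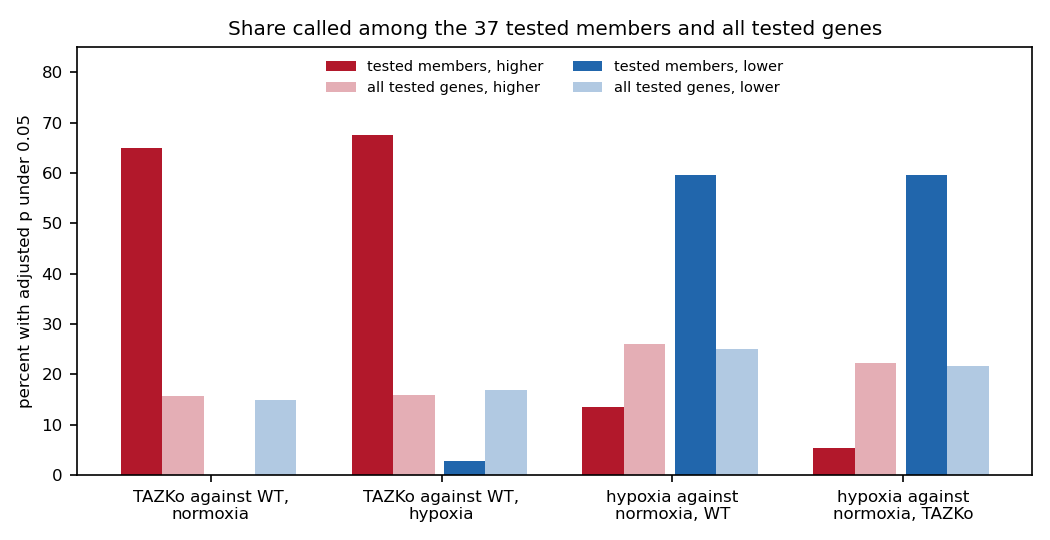
Percent of the 37 tested members (full colour) and of all 14408 tested genes (pale) with an adjusted p under 0.05, higher (red) or lower (blue), in each of the 4 comparisons. In both genotype comparisons the member bars are high for higher calls only (24 and 25 of 37), and in both hypoxia comparisons for lower calls (22 of 37 each).

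The second question was how 24 h of hypoxia moved the same genes. Most members fell in both genotypes. In WT cells 22 of 37 fell and 5 rose, beside 25% lower and 26% higher over all genes, and in TAZKo cells 22 fell and 2 rose, beside 21.6% lower and 22.2% higher. The median log2 change of the members was -0.52 in WT and -0.45 in TAZKo, against 0.01 and -0.01 for all genes. The same 19 members fell in both genotypes, and Mx1 was the 1 member that rose in both. Without WT normoxia sample 1, 23 fell and 4 rose in WT. The 4 comparisons share samples: each group of 3 enters 2 of them, so a high value in WT normoxia lowers a genotype difference and a hypoxia change together.

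**Figure D3:**
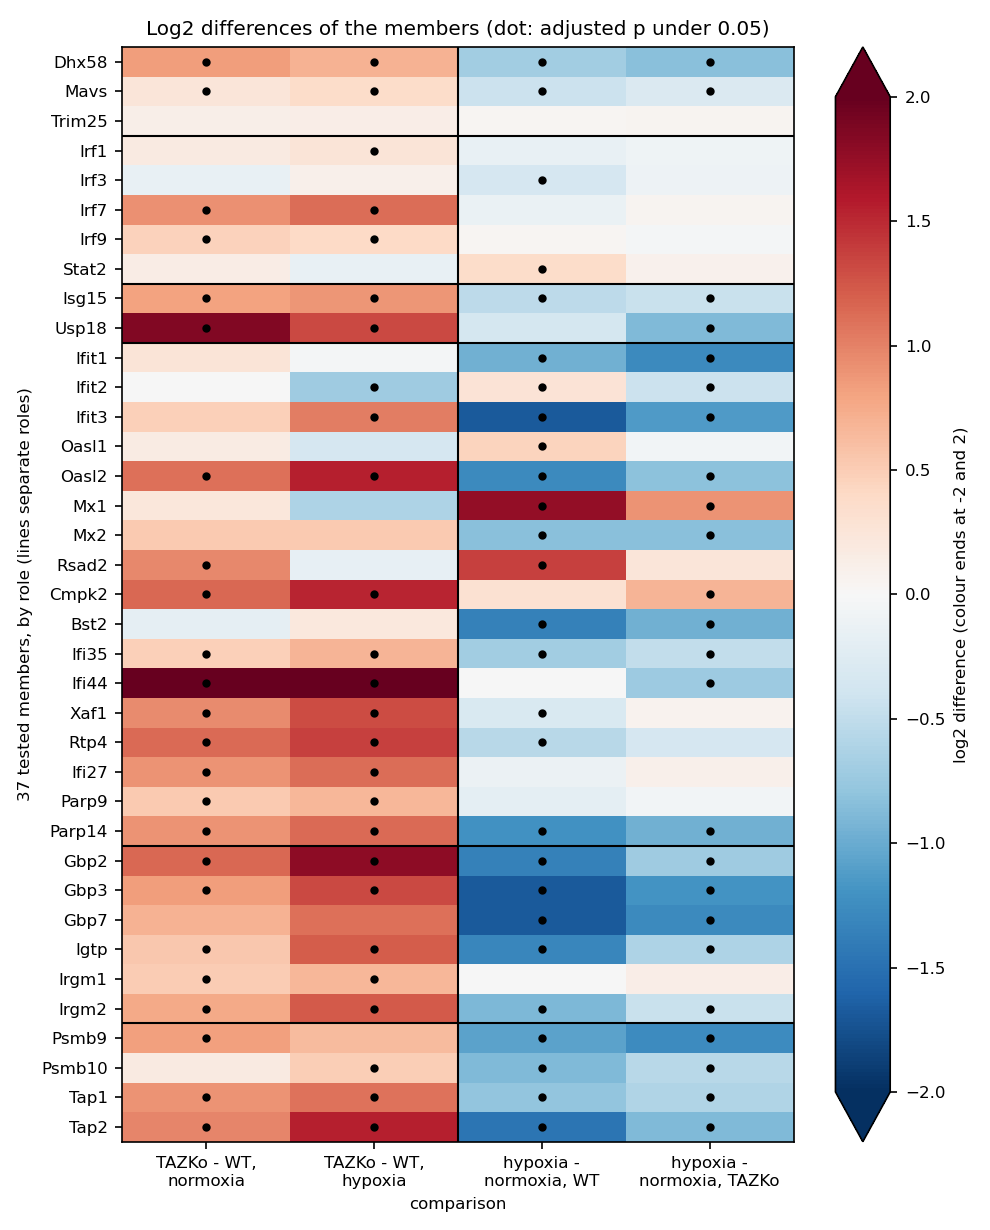
Log2 differences of the 37 tested members (rows, grouped by role) in the 2 genotype and 2 hypoxia comparisons (columns); red is higher, blue is lower, colours end at -2 and 2, and a dot marks an adjusted p under 0.05. The left columns are mostly red, the right columns mostly blue, and Ifi44 in normoxia (3.24) lies beyond the colour scale.

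Among the sensors of viral RNA and their adaptor, 2 of 3 tested members were higher in TAZKo in each condition and 2 of 3 fell with hypoxia in each genotype. Dhx58, the RIG-I-like receptor LGP2, was at 2.26, 1.58 and 2.101 CPM in normoxic WT cells, 4.12, 3.29 and 3.21 in normoxic TAZKo cells, 1.35, 1.17 and 1.16 in hypoxic WT cells and 2.09, 2.28 and 1.603 in hypoxic TAZKo cells. The 3 TAZKo values lay above the 3 WT values in both conditions, by log2 0.83 (SE 0.17, adjusted p 0.00263) in normoxia and 0.6997 (SE 0.21, adjusted p 0.0182) in hypoxia in the edgeR test. Mavs, the mitochondrial membrane adaptor that relays RIG-I-like signals, was at 62.7, 53.8 and 57.7 CPM in normoxic WT cells, 69.6, 69.5 and 66.9 in normoxic TAZKo cells, 44.97, 43.4 and 41.1 in hypoxic WT cells and 56.5, 54.1 and 57.2 in hypoxic TAZKo cells. Its groups did not overlap either, but the differences were small, at log2 0.24 (SE 0.06, adjusted p 0.0117) and 0.37 (SE 0.07, adjusted p 6.77e-04) by edgeR, and it fell with hypoxia (log2 -0.43 in WT and -0.296 in TAZKo). The normoxia call of Mavs was lost without WT normoxia sample 2 or 3 or TAZKo normoxia sample 1 or 2 (edgeR adjusted p at most 0.0985). The hypoxia call of Dhx58 was lost without WT hypoxia sample 2 or 3 or TAZKo hypoxia sample 1 or 2 (at most 0.0841). Trim25, the ubiquitin ligase that activates RIG-I, ranged from 114 to 140 CPM over the 12 libraries and did not pass in any comparison. Its genotype differences were log2 0.12 and 0.13.

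Ifih1, which encodes the RNA sensor MDA5, ran against the other sensors. It had 14, 7 and 13 counts in WT normoxia and 7, 6 and 11 in WT hypoxia, and 0 counts in all 6 libraries labelled TAZKo. It missed the abundance filter and was not among the 37 tested members. Against a floor of 3 counts over a group, Ifih1 was at least 12.3-fold lower in TAZKo in normoxia and at least 8.97-fold lower in hypoxia, which covers counting error only. Without the filter, edgeR gave an adjusted p of 1.47e-08 in normoxia and 2.26e-06 in hypoxia.

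The transcription factors were mixed: Irf7 and Irf9 were higher in TAZKo in both conditions, Irf1 in hypoxia, and Irf3 and Stat2 in neither. Irf7, the interferon-inducible factor that amplifies type I interferon transcription, was at 5.66, 5.001 and 5.76 CPM in normoxic WT cells, 10.6, 9.53 and 10.97 in normoxic TAZKo cells, 4.95, 4.49 and 5.49 in hypoxic WT cells and 10.8, 10.6 and 11.05 in hypoxic TAZKo cells. It was 1.89-fold higher in TAZKo in normoxia (log2 0.92, SE 0.0997, adjusted p 1.20e-05, edgeR) and 2.17-fold higher in hypoxia (log2 1.11, SE 0.101, adjusted p 2.52e-06), and its WT groups lay wholly below its TAZKo groups. Irf9, the DNA-binding partner of STAT2, was at 16.7, 17.6 and 16.6 CPM in normoxic WT cells, 25.1, 22.1 and 22.996 in normoxic TAZKo cells, 19.8, 16.5 and 15.9 in hypoxic WT cells and 23.04, 24.2 and 21.1 in hypoxic TAZKo cells. Its groups did not overlap between genotypes, with log2 0.46 (SE 0.09, adjusted p 0.00164) and 0.39 (SE 0.09, adjusted p 0.004901) by edgeR. Neither Irf7 nor Irf9 passed for hypoxia in either genotype.

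Irf1, a factor induced by interferon gamma that drives antigen processing genes, was at 79.3, 67.8 and 69.3 CPM in normoxic WT cells, 86.05, 80.6 and 79.5 in normoxic TAZKo cells, 68.9, 63.4 and 63.2 in hypoxic WT cells and 77.9, 76.03 and 78.7 in hypoxic TAZKo cells. Every TAZKo value in normoxia lay above the WT values, but only the hypoxia difference passed by edgeR, at log2 0.25 (SE 0.07, adjusted p 0.0126) against 0.19 (SE 0.07, adjusted p 0.0554) in normoxia. When replicate number was a blocking term, the normoxia difference of Irf1 passed (log2 0.19, SE 0.055, edgeR adjusted p 0.0174), as did its fall with hypoxia in WT (log2 -0.15, adjusted p 0.0409). In fits without the block, the genotype call of Irf1 in hypoxia was lost without WT hypoxia sample 2 or 3 (edgeR adjusted p at most 0.0529). Stat2, a subunit of the complex that binds the ISRE, rose with hypoxia in WT by log2 0.37 (SE 0.08, adjusted p 0.00195) from 30.8, 26.6 and 30.7 to 39.8, 36.7 and 37.7 CPM. Its genotype differences did not pass, at 0.15 in normoxia and -0.14 in hypoxia, on chromosome 10, where the median gene was 0.31 and 0.29 higher in TAZKo. Relative to that median, the differences of Stat2 were -0.16 and -0.43. Irf3, whose product the sensors activate through MAVS, is not an induced gene. It fell with hypoxia in WT, with a log2 change of -0.34 (SE 0.06, adjusted p 3.65e-04), and its genotype differences were -0.14 and 0.11, neither of which passed.

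ISG15, a ubiquitin-like modifier, and USP18, the protease that removes it and restrains the type I receptor, were both higher in TAZKo in both conditions. Isg15 was at 12.7, 8.203 and 9.09 CPM in normoxic WT cells, 18.1, 16.8 and 17.6 in normoxic TAZKo cells, 7.904, 5.65 and 7.28 in hypoxic WT cells and 12.6, 12.4 and 13.4 in hypoxic TAZKo cells. The difference was log2 0.81 (SE 0.14, adjusted p 6.67e-04) in normoxia and 0.88 (SE 0.15, adjusted p 5.13e-04) in hypoxia by edgeR, and Isg15 fell with hypoxia (log2 -0.52 in WT and -0.45 in TAZKo). WT normoxia sample 1 was the highest of its group and still below every TAZKo normoxia value. Usp18 was scarce, at 0.354, 0.439 and 0.471 CPM in normoxic WT cells, 1.51, 1.34 and 1.73 in normoxic TAZKo cells, 0.5002, 0.359 and 0.182 in hypoxic WT cells and 0.875, 0.657 and 0.976 in hypoxic TAZKo cells. It was 3.61-fold higher in TAZKo in normoxia (log2 1.85, SE 0.27, adjusted p 1.73e-04, edgeR) and 2.49-fold higher in hypoxia (log2 1.31, SE 0.32, adjusted p 0.00653), with no overlap of the groups.

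**Figure D4:**
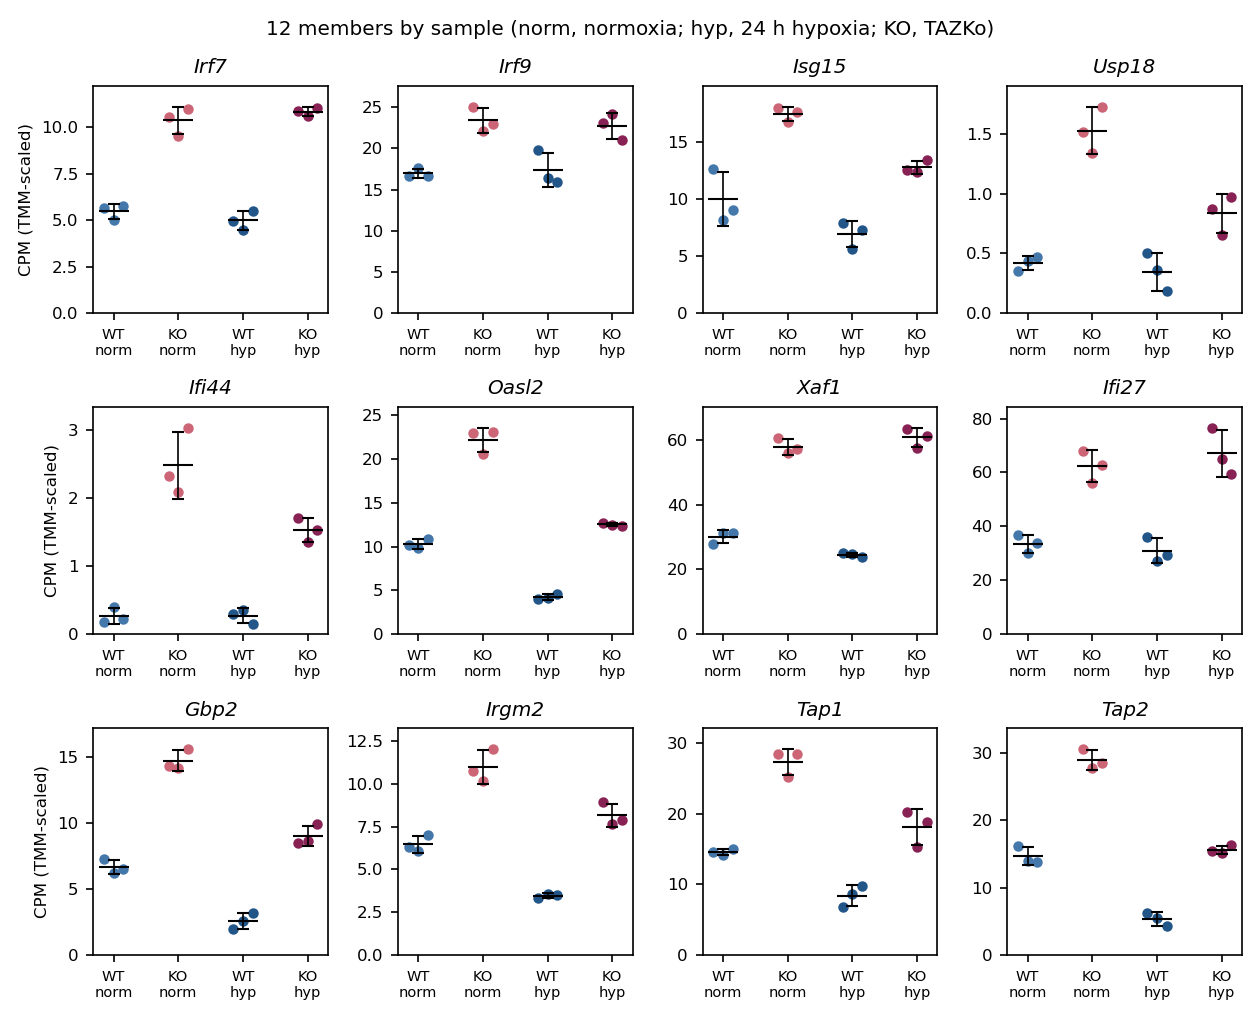
CPM of 12 members in each of the 12 libraries (points), with the group mean and SD (bars, n = 3) and axes from 0; WT groups are blue and TAZKo groups red. In all 12 panels both TAZKo groups lie above the WT group of the same condition, and in Oasl2, Gbp2, Irgm2, Tap1 and Tap2 both hypoxia groups lie below the normoxia group of the same genotype.

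The antiviral effectors and other interferon-stimulated genes were the largest group, with 17 of 19 tested. In TAZKo 10 were higher in normoxia and 10 in hypoxia, 1 was lower in hypoxia, and with hypoxia 9 fell in each genotype. Ifi44, a cytoplasmic antiviral protein, had the largest fitted genotype difference among the 37 tested members, at 0.177, 0.395 and 0.217 CPM in normoxic WT cells, 2.31, 2.08 and 3.03 in normoxic TAZKo cells, 0.3001, 0.359 and 0.146 in hypoxic WT cells and 1.701, 1.35 and 1.53 in hypoxic TAZKo cells. Every TAZKo library held several times the WT level, which was near the floor of 3 counts in some WT libraries, and the fitted fold was 9.45 in normoxia (log2 3.24, SE 0.296, adjusted p 2.45e-06, edgeR) and 5.76 in hypoxia (log2 2.53, SE 0.32, adjusted p 5.42e-05). Ifi44 also fell with hypoxia in TAZKo (log2 -0.72, SE 0.21, adjusted p 0.0139), a call lost without TAZKo normoxia sample 3 or TAZKo hypoxia sample 2 (adjusted p at most 0.0771, edgeR). Oasl2, a relative of the oligoadenylate synthetases, was at 10.2, 9.83 and 10.9 CPM in normoxic WT cells, 22.97, 20.6 and 23.1 in normoxic TAZKo cells, 4.002, 4.08 and 4.62 in hypoxic WT cells and 12.7, 12.5 and 12.3 in hypoxic TAZKo cells. Values did not overlap between the genotypes in either condition or between the conditions in either genotype. Oasl2 was higher in TAZKo by log2 1.11 (SE 0.08, adjusted p 2.85e-07) and 1.56 (SE 0.09, adjusted p 4.42e-08) in the edgeR test and fell with hypoxia (log2 -1.28 in WT and -0.83 in TAZKo).

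Its neighbour Oasl1, a translational repressor of Irf7, lies next to it on chromosome 5 and had another pattern. Oasl1 was at 13.6, 9.74 and 9.89 CPM in normoxic WT cells, 13.5, 12.7 and 10.9 in normoxic TAZKo cells, 16.7, 13.9 and 14.7 in hypoxic WT cells and 12.1, 12.7 and 10.9 in hypoxic TAZKo cells. It rose with hypoxia in WT by log2 0.45 (SE 0.13, adjusted p 0.0122) by edgeR, a call lost without WT normoxia sample 2 or 3 or WT hypoxia sample 1 (adjusted p at most 0.0925), and the genotypes did not differ past the threshold (0.16 and -0.34). Xaf1, a pro-apoptotic interferon-stimulated gene, was at 27.8, 31.4 and 31.4 CPM in normoxic WT cells, 60.7, 55.95 and 57.3 in normoxic TAZKo cells, 25.01, 24.7 and 23.9 in hypoxic WT cells and 63.6, 57.6 and 61.5 in hypoxic TAZKo cells. Its WT and TAZKo values were far apart in both conditions, with log2 0.94 (SE 0.07, adjusted p 2.37e-07) and 1.31 (SE 0.07, adjusted p 1.29e-08) by edgeR. Ifi27, a mitochondrial interferon-stimulated protein, had the highest mean level per kilobase of exon among the members in both TAZKo groups (42.4 CPM per kilobase in normoxia and 45.7 in hypoxia). Its level per kilobase was also high in WT, at 22.8 against 20.5 for Trim25 in normoxia and 21.05 against 21.10 in hypoxia. The length used was the union of all annotated exons of a gene, not that of 1 transcript. On the CPM scale Ifi27 was at 36.8, 30.05 and 33.6 CPM in normoxic WT cells, 67.995, 56.1 and 62.6 in normoxic TAZKo cells, 36.1, 27.3 and 29.3 in hypoxic WT cells and 76.6, 65.1 and 59.6 in hypoxic TAZKo cells. Ifi27 was higher in TAZKo by log2 0.89 (SE 0.12, adjusted p 8.08e-05) and 1.12 (SE 0.12, adjusted p 1.22e-05) in edgeR and did not pass for hypoxia.

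Parp14 and Parp9, members of the ADP-ribosyltransferase family, lie 66.9 kb apart on chromosome 16, and both were higher in TAZKo. Parp14 was at 8.05, 7.24 and 8.801 CPM in normoxic WT cells, 15.1, 14.7 and 14.9 in normoxic TAZKo cells, 3.101, 3.05 and 4.18 in hypoxic WT cells and 7.58, 7.75 and 7.63 in hypoxic TAZKo cells. The level was higher in TAZKo by log2 0.89 (SE 0.11, adjusted p 2.69e-05) and 1.14 (SE 0.12, adjusted p 1.22e-05) by edgeR, and fell with hypoxia (log2 -1.21 in WT and -0.96 in TAZKo). Parp9 was at 14.7, 14.3 and 14.9 CPM in normoxic WT cells, 20.4, 20.8 and 21.7 in normoxic TAZKo cells, 13.9, 11.98 and 12.7 in hypoxic WT cells and 20.3, 19.2 and 21.3 in hypoxic TAZKo cells. It was higher in TAZKo by log2 0.52 (SE 0.07, adjusted p 1.40e-04) and 0.66 (SE 0.08, adjusted p 1.99e-05) by edgeR, with no hypoxia change past the threshold except in WT with the replicate number as a block (log2 -0.19, adjusted p 0.04499). Of its exon bases, 9.4% overlap Dtx3l, which an unstranded library cannot separate. Rtp4, an inhibitor of flavivirus replication, was at 1.504, 2.28 and 2.39 CPM in normoxic WT cells, 4.502, 4.25 and 4.91 in normoxic TAZKo cells, 1.65, 0.942 and 1.601 in hypoxic WT cells and 3.84, 3.53 and 3.52 in hypoxic TAZKo cells. Its genotype groups did not overlap, with log2 1.14 (SE 0.18, adjusted p 3.80e-04) and 1.36 (SE 0.203, adjusted p 1.79e-04) by edgeR. Its fall in WT hypoxia passed narrowly (log2 -0.56, SE 0.22, adjusted p 0.0464) and was lost without WT normoxia sample 2 or 3 or WT hypoxia sample 2 (adjusted p at most 0.124, edgeR). Of the words of Rtp4, 13.6% occur in another gene, and 13.9% of its exon bases overlap that gene. Ifi35, which binds NMI, was at 26.98, 19.96 and 21.1 CPM in normoxic WT cells, 31.9, 30.9 and 31.6 in normoxic TAZKo cells, 14.9, 13.2 and 14.01 in hypoxic WT cells and 25.4, 21.4 and 20.7 in hypoxic TAZKo cells. Ifi35 was higher in TAZKo by log2 0.47 (SE 0.11, adjusted p 0.00438) and 0.68 (SE 0.11, adjusted p 4.53e-04) in the edgeR test and fell with hypoxia in both genotypes (-0.69 and -0.49), while 16.8% of its exon bases overlap another annotated gene.

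Cmpk2 and Rsad2 are neighbours on chromosome 12, 12.8 kb apart, and act together: CMPK2 makes the nucleotide that viperin, the product of Rsad2, turns into a chain terminator. Cmpk2 was at 0.752, 0.614 and 0.869 CPM in normoxic WT cells, 1.64, 1.78 and 1.61 in normoxic TAZKo cells, 0.6503, 1.17 and 0.946 in hypoxic WT cells and 2.77, 2.53 and 2.79 in hypoxic TAZKo cells. The level was higher in TAZKo by log2 1.15 (SE 0.21, adjusted p 8.80e-04) in normoxia and 1.53 (SE 0.19, adjusted p 3.95e-05) in hypoxia by edgeR, and rose with hypoxia in TAZKo by 0.69 (SE 0.17, adjusted p 0.00476). Rsad2 was at 0.796, 0.614 and 0.688 CPM in normoxic WT cells, 1.35, 1.34 and 1.39 in normoxic TAZKo cells, 1.95, 1.53 and 1.93 in hypoxic WT cells and 1.75, 2.04 and 1.08 in hypoxic TAZKo cells. It was higher in TAZKo in normoxia only (log2 0.96, SE 0.26, adjusted p 0.0116, edgeR), and the groups overlapped in hypoxia (log2 -0.16). Rsad2 rose with hypoxia in WT by log2 1.36 (SE 0.25, adjusted p 4.52e-04), while the TAZKo change was 0.25, and the difference of the changes did not pass (log2 -1.12, SE 0.33, adjusted p 0.1104).

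The IFIT family, RNA-binding inhibitors of translation, lay within 1 cluster on chromosome 19 and did not move as a block. Ifit2 was at 22.8, 26.9 and 28.6 CPM in normoxic WT cells, 24.1, 26.3 and 27.4 in normoxic TAZKo cells, 34.3, 29.97 and 30.7 in hypoxic WT cells and 19.1, 19.2 and 19.5 in hypoxic TAZKo cells. WT and TAZKo overlapped in normoxia (log2 -0.01), while in hypoxia all TAZKo values lay below all WT values, by log2 -0.71 (SE 0.09, adjusted p 4.20e-05) in the edgeR test. Ifit2 fell with hypoxia in TAZKo, with a log2 change of -0.43 (SE 0.09, adjusted p 0.00157). The rise in WT passed at 0.27 (SE 0.09, adjusted p 0.0182), but 11 of the 12 fits without 1 library lost that call, with log2 values from 0.16 to 0.29. Ifit1 fell with hypoxia in both genotypes, from 7.12, 7.46 and 8.403 to 4.202, 3.45 and 4.15 CPM in WT (log2 -0.96, SE 0.11, adjusted p 7.87e-06) and from 8.67, 9.45 and 9.46 to 3.79, 4.01 and 3.66 in TAZKo (log2 -1.27, SE 0.11, adjusted p 7.09e-07). Its genotype differences did not pass, at 0.26 and -0.04. Ifit3 was scarce, at 0.708, 0.746 and 0.905 CPM in normoxic WT cells, 1.09, 1.26 and 0.989 in normoxic TAZKo cells, 0.2001, 0.179 and 0.328 in hypoxic WT cells and 0.583, 0.415 and 0.523 in hypoxic TAZKo cells. Ifit3 was higher in TAZKo in hypoxia by log2 1.03 (SE 0.32, adjusted p 0.0353) in edgeR and not past the threshold in normoxia (0.48). DESeq2 did not make the hypoxia call, and edgeR lost it without sample 1 or 2 of WT hypoxia or 1 or 3 of TAZKo hypoxia (adjusted p at most 0.138). Of Ifit3, 51.2% of 50-base words also occur in Ifit3b, so its counts are uncertain. The median gene of chromosome 19 was 0.27 lower in TAZKo in normoxia and 0.28 lower in hypoxia, and the part of that shift in these values was not tested. With the chromosome median subtracted, the hypoxia difference of Ifit2 was -0.43, and the differences in normoxia and hypoxia were 0.53 and 0.24 for Ifit1. In normoxia they were then 0.26 for Ifit2 and 0.74 for Ifit3.

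**Figure D5:**
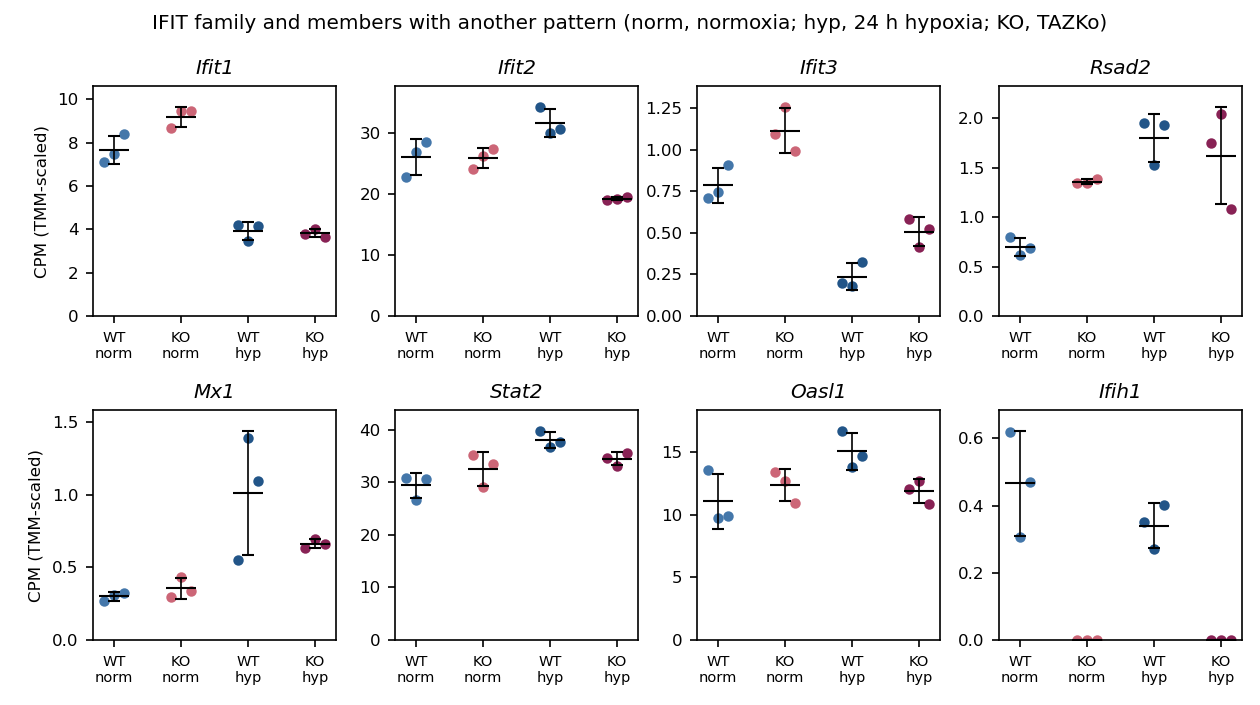
CPM of the IFIT family and of 5 other members whose pattern differed from the rest, in each of the 12 libraries (points) with the group mean and SD (bars, n = 3) and axes from 0. Ifit2 is lowest in TAZKo hypoxia (19.1 to 19.5 CPM), Mx1, Rsad2, Stat2 and Oasl1 are higher in WT hypoxia than in WT normoxia, and Ifih1 is at 0 in all 6 TAZKo libraries.

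The remaining effectors did not pass between the genotypes. Bst2, or tetherin, which holds budding virus at the cell surface, fell with hypoxia from 13.7, 11.01 and 10.9 to 4.502, 3.903 and 5.42 CPM in WT (log2 -1.35, SE 0.15, adjusted p 6.47e-06, edgeR) and likewise in TAZKo (log2 -0.96, SE 0.15, adjusted p 1.45e-04). Its genotype differences were -0.18 and 0.21. Mx1 and Mx2 belong to a family of antiviral dynamin-like GTPases, and their transcripts moved in opposite directions with hypoxia. Whether either locus makes a functional protein in the mouse strain used was not tested, so these values describe transcript levels only. Mx1 rose from 0.265, 0.307 and 0.326 to 0.5503, 1.39 and 1.09 CPM in WT (log2 1.75, SE 0.33, adjusted p 6.07e-04, edgeR). In TAZKo the rise of Mx1 passed narrowly, at 0.899 (SE 0.34, adjusted p 0.0442), and 9 of the 12 fits without 1 library lost it (edgeR adjusted p at most 0.139). Mx2 fell, with a log2 change of -0.84 (SE 0.302, adjusted p 0.0324) in WT and -0.84 (SE 0.25, adjusted p 0.0157) in TAZKo, both calls that DESeq2 did not make. The WT call of Mx2 was lost without WT normoxia sample 2 or 3 or WT hypoxia sample 1 or 2, and the TAZKo call without TAZKo hypoxia sample 2, with an edgeR adjusted p of at most 0.08997 and 0.0586. The genotype differences were 0.23 and -0.62 for Mx1 and 0.52 and 0.52 for Mx2.

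The interferon-inducible GTPases, which attack the vacuoles of intracellular pathogens, formed the next role. Of 6 tested, 5 were higher in TAZKo in each condition and 5 fell with hypoxia in each genotype. Gbp2, a guanylate-binding protein, was at 7.25, 6.19 and 6.52 CPM in normoxic WT cells, 14.3, 14.2 and 15.6 in normoxic TAZKo cells, 1.95, 2.56 and 3.17 in hypoxic WT cells and 8.51, 8.61 and 9.897 in hypoxic TAZKo cells. It was 2.22-fold higher in TAZKo in normoxia (log2 1.15, SE 0.12, adjusted p 9.98e-06, edgeR) and 3.47-fold higher in hypoxia (log2 1.79, SE 0.14, adjusted p 7.37e-07), and fell with hypoxia (log2 -1.35 in WT and -0.71 in TAZKo). Gbp3, 47.4 kb from Gbp2 on chromosome 3, was at 6.55, 5.31 and 6.12 CPM in normoxic WT cells, 10.4, 9.84 and 11.7 in normoxic TAZKo cells, 1.65, 1.75 and 2.15 in hypoxic WT cells and 3.79, 4.84 and 5.19 in hypoxic TAZKo cells. Its genotype groups were separate, with log2 0.83 (SE 0.13, adjusted p 2.58e-04) and 1.31 (SE 0.16, adjusted p 3.77e-05) by edgeR, and it fell with hypoxia (log2 -1.68 in WT and -1.195 in TAZKo). Gbp7, next in the cluster, stayed below 3 CPM in all 12 libraries and fell with hypoxia in both genotypes (-1.67 and -1.27). Its genotype differences, 0.701 and 1.11, did not pass, and 12.8% of its words are shared with other genes. The TAZKo fall of Gbp7 was lost without TAZKo normoxia sample 3 or TAZKo hypoxia sample 1 or 2 (edgeR adjusted p at most 0.0865).

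The immunity-related GTPases on chromosome 11 were higher in TAZKo throughout. Irgm2 was at 6.28, 6.097 and 7.03 CPM in normoxic WT cells, 10.7, 10.1 and 12.1 in normoxic TAZKo cells, 3.302, 3.59 and 3.53 in hypoxic WT cells and 8.94, 7.64 and 7.88 in hypoxic TAZKo cells. It was higher by log2 0.76 (SE 0.101, adjusted p 7.13e-05) in normoxia and 1.22 (SE 0.11, adjusted p 2.81e-06) in hypoxia by edgeR and fell with hypoxia (log2 -0.897 in WT and -0.44 in TAZKo). Igtp, or IRGM3, whose annotated span overlaps that of Irgm2, was at 4.11, 4.299 and 3.98 CPM in normoxic WT cells, 5.93, 5.03 and 6.89 in normoxic TAZKo cells, 1.65, 1.62 and 1.75 in hypoxic WT cells and 4.37, 3.87 and 3.48 in hypoxic TAZKo cells. It was higher by log2 0.54 (SE 0.13, adjusted p 0.00639) and 1.21 (SE 0.16, adjusted p 5.14e-05) by edgeR, with the normoxia call lost without TAZKo normoxia sample 3 (adjusted p 0.0602). Reads may have been split, since 12.3% of its words are shared with Irgm2. Irgm1 was at 26.4, 27.4 and 27.6 CPM in normoxic WT cells, 40.3, 36.9 and 38.8 in normoxic TAZKo cells, 30.7, 25.3 and 25.04 in hypoxic WT cells and 42.96, 43.1 and 41.7 in hypoxic TAZKo cells. The level was higher in TAZKo by log2 0.51 (SE 0.08, adjusted p 2.34e-04) and 0.66 (SE 0.08, adjusted p 2.59e-05) by edgeR and, alone among the 6, did not pass for hypoxia in either genotype in the fit over all 12 samples. In the fit of only the 6 TAZKo samples Irgm1 passed as rising.

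Of the 4 tested antigen processing members, 3 were higher in TAZKo in each condition and all 4 fell with hypoxia in both genotypes. Tap1 and Tap2 encode the subunits of the peptide transporter. Tap1 was at 14.6, 14.2 and 15.03 CPM in normoxic WT cells, 28.4, 25.1 and 28.4 in normoxic TAZKo cells, 6.85, 8.57 and 9.83 in hypoxic WT cells and 20.3, 15.3 and 18.8 in hypoxic TAZKo cells. It was higher in TAZKo by log2 0.903 (SE 0.12, adjusted p 7.13e-05) in normoxia and 1.09 (SE 0.13, adjusted p 2.46e-05) in hypoxia by edgeR, and fell with hypoxia (log2 -0.79 in WT and -0.596 in TAZKo). Tap2 was at 16.2, 14.04 and 13.8 CPM in normoxic WT cells, 30.7, 27.8 and 28.5 in normoxic TAZKo cells, 6.203, 5.56 and 4.29 in hypoxic WT cells and 15.5, 15.2 and 16.3 in hypoxic TAZKo cells. Tap2 was higher in TAZKo by log2 0.98 (SE 0.103, adjusted p 8.94e-06) and 1.56 (SE 0.12, adjusted p 4.38e-07) by edgeR, and fell with hypoxia (log2 -1.47 in WT and -0.89 in TAZKo). Both genes were separate between the genotypes within each condition, and the TAZKo hypoxia values of Tap2 lay among or just above those of WT normoxia. Of its exon bases, 18.5% overlap other annotated genes.

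Psmb9 and Psmb10 encode the interferon-inducible catalytic subunits beta1i and beta2i, which replace Psmb6 and Psmb7 in the immunoproteasome. Psmb10 was at 27.1, 21.6 and 20.03 CPM in normoxic WT cells, 27.1, 26.05 and 24.6 in normoxic TAZKo cells, 12.5, 12.2 and 12.6 in hypoxic WT cells and 18.8, 17.3 and 16.8 in hypoxic TAZKo cells. Psmb10 was higher in TAZKo in hypoxia by log2 0.4997 (SE 0.104, adjusted p 0.00235) in edgeR and not past the threshold in normoxia (0.18), where WT sample 1 lay among the TAZKo values. It fell with hypoxia, with a log2 change of -0.88 (SE 0.103, adjusted p 1.02e-05) in WT and -0.56 (SE 0.099, adjusted p 4.75e-04) in TAZKo. Per kilobase of exon, Psmb10 stood at 27.2 ± 4.49% of Psmb7 in WT normoxia and 34.1 ± 0.77% in TAZKo normoxia (SD, n = 3). These ratios depend on the exon unions, 1705 bases for Psmb10 and 3421 for Psmb7, of which 11.8% overlap Nek6. In hypoxia the ratio was 17.5 ± 0.972% in WT and 28.2 ± 3.25% in TAZKo. Psmb9 was scarce, at 1.95, 1.89 and 1.41 CPM in normoxic WT cells, 3.07, 3.12 and 3.03 in normoxic TAZKo cells, 0.4002, 0.852 and 1.13 in hypoxic WT cells and 0.972, 1.59 and 1.22 in hypoxic TAZKo cells. It was higher in TAZKo in normoxia by log2 0.82 (SE 0.23, adjusted p 0.0137) in edgeR, and fell with hypoxia (log2 -1.07 in WT and -1.26 in TAZKo). The normoxia call of Psmb9 was lost without WT normoxia sample 3 or TAZKo normoxia sample 2 (edgeR adjusted p at most 0.0742). Per kilobase of exon union (3660 bases for Psmb9 and 1872 for Psmb6), Psmb9 reached at most 0.896% of Psmb6 in any library.

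The constitutive core of the proteasome differed between the genotypes in the other direction, and fell with hypoxia as the antigen processing members did. Of its 14 core subunit genes, 6 were lower in TAZKo in normoxia and 7 in hypoxia (42.9% and 50%, beside 14.9% and 16.9% of all genes). With hypoxia 12 of the 14 fell in WT and 11 in TAZKo (85.7% and 78.6%, beside 25% and 21.6% of all genes). None was higher in a genotype or hypoxia comparison by edgeR or DESeq2, nor at an unadjusted p under 0.05. Psma7 was lower in TAZKo, with a log2 difference of -0.41 (SE 0.06, adjusted p 1.18e-04) in normoxia and -0.32 (SE 0.06, adjusted p 9.38e-04) in hypoxia by edgeR. Psmb3 was lower too, at -0.42 (SE 0.12, adjusted p 0.0162) and -0.34 (SE 0.12, adjusted p 0.0452), but lost the normoxia call without TAZKo normoxia sample 3 and the hypoxia call in 6 of the 12 fits without 1 library. Psma2 was lower in both conditions (-0.25 and -0.23), Psmb6 in normoxia (log2 -0.26) and Psmb7 in hypoxia (-0.18), and the calls of Psmb6 and Psmb7 were each lost in 3 of the 12 fits. With hypoxia Psma1 fell (log2 -0.44 in WT and -0.44 in TAZKo), as did Psma4 (-0.39 and -0.44) and Psma5 (-0.402 and -0.41). Of the words of Psma4 and Psma5, 25.6% and 54.5% occur in other genes.

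The difference between the genotypes in their hypoxia response (the interaction) passed for 1 of 37 members, Ifit2, beside 0.722% higher and 1.71% lower over all genes. The TAZKo change of Ifit2 minus the WT change was log2 -0.704 (SE 0.13, adjusted p 0.009696) by edgeR, and it passed in every fit that left out 1 library. With TMM scaling and the abundance filter, no member passed in the other direction by edgeR. At an unadjusted p under 0.05, 9 members were higher and 4 lower by edgeR. The share of all genes at that unadjusted level is not given here, so these counts have no background. By other settings some members passed as higher: Gbp2, Tap2 and Xaf1 by DESeq2 or by edgeR without the filter, Tap2 and Xaf1 with the replicate number as a block, and Xaf1 with DESeq2 size factors, upper quartile scaling or a 5 CPM filter. The edgeR values of these genes were log2 0.65 (SE 0.19, adjusted p 0.103) for Gbp2, 0.58 (SE 0.16, adjusted p 0.0789) for Tap2 and 0.37 (SE 0.095, adjusted p 0.0624) for Xaf1. Without WT normoxia sample 1, Ifit2, Oasl1 and Xaf1 passed.

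The 5 members that missed the abundance filter had few counts. Besides Ifih1, Psmb8, the beta5i subunit, reached at most 5 counts in a library, and Iigp1, an immunity-related GTPase, at most 0.0927 CPM. Oas1a and Oas2, oligoadenylate synthetases, ran from 0.0439 to 0.631 CPM and from 0 to 0.631 CPM. Of Oas1a, 57.6% of 50-base words also occur in close relatives. In the 12 libraries 3 counts corresponded to between 0.0927 and 0.1501 CPM, so most values of these 4 genes lay near what 3 counts are worth. Fitted without the filter, Oas2 passed as higher in TAZKo in hypoxia (log2 3.27, edgeR adjusted p 0.0113), with 0, 0 and 1 counts in hypoxic WT cells, and as falling with hypoxia in WT (log2 -3.31, adjusted p 0.00638) and TAZKo (log2 -1.36, adjusted p 0.0309). Oas1a passed as higher in TAZKo in normoxia (log2 1.67, edgeR adjusted p 0.0307), and Psmb8 and Iigp1 passed in no comparison. At such counts a fitted fold depends on the prior count and is no bound.

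Interferon ligands were at or near 0 counts. Of 12 interferon ligand genes, 8 had 0 counts in all 12 libraries, the highest count in a library was 6, and Ifnb1 reached at most 2 counts. The receptors were present in all groups. Of 18 genes for receptors, JAK kinases and related factors, 6 were higher and 2 lower in TAZKo in normoxia (33.3% and 11.1%). Over all genes 15.6% were higher and 14.9% lower. In hypoxia 5 of the 18 were higher and 1 lower (27.8% and 5.56%), beside 15.8% and 16.9% of all genes. Ifngr1, a chain of the interferon gamma receptor, was at 28.9, 31.2 and 31.1 CPM in normoxic WT cells, 47.8, 49.5 and 50.04 in normoxic TAZKo cells, 39.1, 34.8 and 40.9 in hypoxic WT cells and 59.98, 55.4 and 58.9 in hypoxic TAZKo cells. Ifngr1 was higher in TAZKo by log2 0.69 (SE 0.07, adjusted p 5.98e-06) and 0.601 (SE 0.07, adjusted p 1.95e-05) by edgeR, without overlap, and by 0.38 and 0.32 above the median gene of its chromosome 10. Ifnar1 and Ifnar2, the type I receptor, fell with hypoxia in both genotypes (-0.31 and -0.35 for Ifnar1, -0.43 and -0.41 for Ifnar2) and did not pass between genotypes. Irf5 was lower in TAZKo in normoxia, with a log2 difference of -1.07 (SE 0.09, adjusted p 1.68e-06) in edgeR, and fell with hypoxia (log2 -1.59 in WT and -0.77 in TAZKo). Irf8 was higher in TAZKo by 0.997 (SE 0.24, adjusted p 0.00656) and 0.93 (SE 0.24, adjusted p 0.00857), and Ptpn6, a phosphatase that restrains JAK kinases, by 0.66 and 0.47. Socs1, a feedback inhibitor, fell with hypoxia in TAZKo (log2 -0.73), and Ifnlr1 fell in both genotypes (-0.46 in WT and -0.39 in TAZKo). Mean levels of Jak1 were 285 ± 12.5, 324 ± 5.58, 291 ± 3.34 and 314 ± 6.95 CPM (SD, n = 3) in WT normoxia, TAZKo normoxia, WT hypoxia and TAZKo hypoxia, and those of Ifngr2 in the same order 104 ± 4.21, 106 ± 2.44, 105 ± 4.28 and 121 ± 3.07.

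Other nucleic acid sensors held 6 higher and 1 lower of 16 tested in normoxia (37.5% and 6.25%), beside 15.6% and 14.9% of all genes. In hypoxia 6 were higher and 2 lower (37.5% and 12.5%), beside 15.8% and 16.9%. Aim2, the cytosolic DNA sensor of the inflammasome, was at 2.39, 2.68 and 2.57 CPM in normoxic WT cells, 8.63, 9.101 and 8.53 in normoxic TAZKo cells, 2.75, 2.15 and 2.37 in hypoxic WT cells and 7.34, 6.43 and 7.49 in hypoxic TAZKo cells. Aim2 was higher in TAZKo by log2 1.78 (SE 0.11, adjusted p 7.87e-08) and 1.55 (SE 0.12, adjusted p 4.57e-07) by edgeR. Ddx58, the RNA sensor RIG-I, was at 31.9, 30.9 and 32.5 CPM in normoxic WT cells, 59.7, 57.4 and 62.7 in normoxic TAZKo cells, 21.2, 27.9 and 26.9 in hypoxic WT cells and 50.6, 49.3 and 52.7 in hypoxic TAZKo cells. It was higher by log2 0.92 (SE 0.09, adjusted p 3.13e-06) and 1.002 (SE 0.09, adjusted p 1.79e-06) by edgeR. Adar, which edits double-stranded RNA, was higher by 0.397 and 0.31, Zc3hav1 by 0.397 in normoxia, and Tlr7 was lower in hypoxia (log2 -1.09, SE 0.38, adjusted p 0.0401), a call lost in 6 of the 12 fits without 1 library. Pnpt1 fell with hypoxia (log2 -0.45 in WT and -0.64 in TAZKo), as did Mb21d1, which encodes cGAS (-0.38 and -0.37). Zc3hav1 rose in WT by log2 0.44 and in TAZKo by 0.199, the latter a call lost in 9 of the 12 fits without 1 library.

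A wider list of 60 interferon-stimulated genes outside the 42 members had 46 tested. In TAZKo 29 were higher and 1 lower in normoxia (63% and 2.17%), beside 15.6% and 14.9% of all genes. In hypoxia 22 were higher and 2 lower (47.8% and 4.35%), beside 15.8% and 16.9%. The median log2 difference was 0.42 in normoxia and 0.40 in hypoxia. With hypoxia 17 fell and 8 rose in WT (37% and 17.4%), beside 25% and 26% of all genes. In TAZKo 18 fell and 9 rose (39.1% and 19.6%), beside 21.6% and 22.2%. The rising share in TAZKo was thus near that of all genes. Lgals3bp, a secreted glycoprotein, was at 26.8, 20.8 and 24.2 CPM in normoxic WT cells, 51.3, 49.2 and 50.8 in normoxic TAZKo cells, 17.5, 13.95 and 13.6 in hypoxic WT cells and 45.2, 47.1 and 40.7 in hypoxic TAZKo cells. It was higher in TAZKo by log2 1.08 (SE 0.102, adjusted p 3.64e-06) and 1.57 (SE 0.11, adjusted p 1.76e-07) by edgeR. Trim14, an adaptor of MAVS signalling, was higher by 1.34 (SE 0.21, adjusted p 2.88e-04) and 1.16 (SE 0.25, adjusted p 0.00284), Oas1c by 1.15 and 1.01, and Gbp2b by 1.09 and 1.45. Of the exon bases of Trim14, 38.0% overlap other annotated genes. Oas3 was higher by 2.65 (SE 0.47, adjusted p 7.75e-04) in normoxia and 2.45 (SE 0.36, adjusted p 1.54e-04) in hypoxia. Isg20, an exonuclease, rose with hypoxia by 1.68 (SE 0.11, adjusted p 4.00e-08) in WT and 1.36 (SE 0.11, adjusted p 4.03e-07) in TAZKo, and Ifi207 by 2.22 and 1.299. Slfn2 rose by 1.67 in WT and 1.496 in TAZKo. Gbp4 fell in both (log2 -1.17 in WT and -0.99 in TAZKo), and 1 of the 12 fits without 1 library lost the WT call.

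Class I presentation beyond the members had 19 of 21 genes tested. In TAZKo 11 were higher and 2 lower in normoxia (57.9% and 10.5%), beside 15.6% and 14.9% of all genes. In hypoxia 12 were higher and 3 lower (63.2% and 15.8%), beside 15.8% and 16.9%. The lower share in hypoxia was thus near that of all genes. H2-D1, a classical heavy chain, was at 45.3, 33.7 and 34.6 CPM in normoxic WT cells, 81.9, 73.4 and 78.8 in normoxic TAZKo cells, 55.8, 53.7 and 54.5 in hypoxic WT cells and 107, 106 and 93.9 in hypoxic TAZKo cells. H2-D1 was higher in TAZKo by log2 1.04 (SE 0.0998, adjusted p 3.73e-06) and 0.91 (SE 0.098, adjusted p 1.25e-05) by edgeR and rose with hypoxia by 0.53 in WT and 0.39 in TAZKo. H2-K1, the other classical heavy chain, was at 31.2, 24.6 and 25.9 CPM in normoxic WT cells, 29.6, 29.04 and 30.9 in normoxic TAZKo cells, 151, 150.2 and 163 in hypoxic WT cells and 109, 97.8 and 97.99 in hypoxic TAZKo cells. Unlike Tap1 and Tap2 it rose with hypoxia, by log2 2.51 (SE 0.09, adjusted p 6.95e-11) in WT and 1.77 (SE 0.08, adjusted p 2.38e-09) in TAZKo by edgeR, and was lower in TAZKo in hypoxia, at log2 -0.61 (SE 0.08, adjusted p 7.00e-05), but not past the threshold in normoxia (0.13). B2m, the light chain, was higher in TAZKo by 0.48 and 0.45, and Tapbp, which bridges the transporter and class I molecules, by 0.57 and 0.83. Nlrc5, the class I transactivator, was higher in hypoxia by 1.12 (SE 0.36, adjusted p 0.0299) and rose with hypoxia in TAZKo by 1.08, calls lost in 4 and 5 of the 12 fits without 1 library. Psme2, an inducible proteasome activator subunit, fell with hypoxia (log2 -0.57 in WT and -0.38 in TAZKo). Reads of class I heavy chains can be split between alike genes: 14.3% of the words of H2-D1 and 8.11% of those of H2-K1 occur elsewhere. Of the words of Psme2, 59.3% occur in other genes, and 29.0% of the exon bases of Tapbp overlap other annotated genes.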

How the data were processed

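Read counts per Ensembl gene were deposited by the authors as 1 table per sample, as whole numbers with no normalization recorded. Per the labels' protocols, libraries were made with the Illumina TruSeq RNA v2 kit, a kit that does not keep strand. The build was mm10, per the submitters' processing notes, and the aligner, counter and annotation release are not given in the sources used here. Gene symbols and positions came from GENCODE M21 on GRCm38 by ID, and promoters from RefSeq (GRCm38.p6). Total counts ran from 21039451 to 31204510 per library, and a floor of 3 counts covers counting error only.

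The filter filterByExpr kept 14408 of 48709 genes. In R 4.3.3, edgeR 4.0.16 with limma 3.58.1 gave TMM factors and a quasi-likelihood fit of the 4 group means, so that all 12 samples shared the estimate of spread. Benjamini-Hochberg adjustment ran over every tested gene, calls were made under 0.05, and the model was tested on simulated data with 200 changed genes. Alternatives were DESeq2 1.42.0, other scalings, filters, a replicate block, lane, only the 6 samples compared, subtraction of the chromosome median and each library left out. The labels do not say that replicate numbers pair samples. Deviations of same-numbered samples correlated over 0.1 in all 3 pairs between the genotypes in normoxia (0.149 to 0.354). They also did between the conditions in WT (0.152 to 0.368), and not in all pairs of the other comparisons. Between the genotypes in normoxia and between the conditions in WT, pairs of a sample 2 with a sample 3 correlated over 0.1 as well (0.112 to 0.18). Every sample 1 was on lane 4 and every sample 3 on lane 5, so number and lane cannot be fully told apart. Shared sequence was counted as the percent of 50-base words of a gene's transcripts found in another gene. Members called between the genotypes or in the interaction are given with every sample. From each wider list the genes with the largest called differences and a fixed set of receptors, class I and proteasome genes are named, except items that are not reported here. The members and lists were chosen with earlier results of these data known.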

Additional observations from a re-analysis of the deposited data

Results flagged for a closer look

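The response to hypoxia differed between the genotypes, by the interaction term of the edgeR quasi-likelihood test, for 1 of 37 members and 7 genes of the other lists. Over all genes tested, 0.722% were higher and 1.71% lower. The 7 were 3 of 19 tested class I genes, 2 of 46 other interferon-stimulated genes, 1 of 18 receptors and related factors, and 1 of 3 epithelial markers. In the remaining lists none passed. Values are the log2 response of TAZKo minus that of WT. Ifit2 was at -0.70 (SE 0.13, adjusted p 0.0097), with a rise in WT and a fall in TAZKo. H2-K1 was at -0.74 (adjusted p 0.00526): it rose by 2.51 in WT and 1.77 in TAZKo. H2-T23 was at -1.01 (adjusted p 0.0349): it stood at 1.37, 0.833 and 0.833 CPM in normoxic WT cells, 6.98, 5.55 and 6.03 in normoxic TAZKo cells, 5.202, 4.85 and 5.28 in hypoxic WT cells and 17.2, 15.7 and 14.04 in hypoxic TAZKo cells. H2-Q4 was at -0.58 (adjusted p 0.0323), and its rise passed the threshold in WT and not in TAZKo. Ifi203 was at -1.30 (adjusted p 0.0375), with 2.21, 3.51 and 3.19 CPM in normoxic WT cells, 3.79, 4.29 and 5.35 in normoxic TAZKo cells, 4.45, 4.71 and 5.57 in hypoxic WT cells and 3.597, 2.14 and 3.45 in hypoxic TAZKo cells. Irf5 was at 0.82 (adjusted p 0.00652), with a change of -1.59 in WT and -0.77 in TAZKo. Ifitm1 was at 2.11 (adjusted p 0.0167), at 1.73, 1.75 and 2.06 CPM in normoxic WT cells, 0.505, 0.347 and 0.618 in normoxic TAZKo cells, 1.101, 0.494 and 0.582 in hypoxic WT cells and 0.826, 0.692 and 0.976 in hypoxic TAZKo cells. Krt14, a keratin on the list of epithelial markers, was at 0.64 (adjusted p 0.00771), with a change of -0.29 in WT and 0.36 in TAZKo. Ifi203, H2-T23 and H2-Q4 lost the call in 8, 10 and 8 of the 12 fits that left out 1 library, and Ifitm1 in 2. Of the words of H2-T23, H2-Q4 and Ifi203, 14.96%, 22.03% and 10.7% occur in other genes.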

How the results depend on the processing

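The direction of every called member difference held under the alternatives run. Of 50 genotype calls and 51 hypoxia calls of members, 44 and 43 passed in all 12 fits that left out 1 library, which gave 23 to 27 members called in normoxia between the genotypes, 24 to 28 in hypoxia, 24 to 29 for the hypoxia change in WT and 20 to 25 in TAZKo. Members lower in TAZKo in normoxia numbered 0 to 2 in those fits (Ifih1 and Irf3) and 1, Ifih1, without the filter. Those lower in hypoxia numbered 1 to 3, 3 without the filter (Ifih1, Ifit2 and Oasl1), and 2 (Ifit2 and Oasl1) with lane as a term or with only the 6 samples compared. Members rising in WT numbered 3 to 4 without 1 library, and 3 with a mean of at least 5 CPM or with 6 samples. In TAZKo, a mean of at least 5 CPM left 14 called, 14 falling and 0 rising. Rising members in TAZKo numbered 1 with upper quartile scaling, library size alone, DESeq2, no filter, lane, or a mean of at least 1 CPM (an alternative chosen after seeing the data), 1 to 2 without 1 library, and 3 with only the 6 samples compared (Cmpk2, Irgm1 and Mx1). The interaction gave 2 members, 1 of them higher, with DESeq2 size factors, upper quartile scaling or 5 CPM, 4 members, 3 higher, with DESeq2 or no filter, and 1 to 3, with 0 to 2 higher and 1 to 2 lower, without 1 library.

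Leaving out 1 library turned the sign of 3 differences that were not called: Ifit2 between the genotypes in normoxia (-0.10 to 0.026), Rsad2 between the genotypes in hypoxia (-0.39 to 0.073) and Rsad2 with hypoxia in TAZKo (-0.0098 to 0.45). Mavs in normoxia missed the threshold without the filter (adjusted p 0.0791, edgeR) and with 6 samples (0.0506). The rise of Ifit2 in WT missed it by library size alone (0.105), without the filter (0.128) and with 6 samples (0.122). Subtracting the chromosome median moved 13 member differences by more than their SE, 5 of them called. Of these 5, Ifit2 in hypoxia changed by over 1.5 times, from -0.71 to -0.43. The causes were not tested.

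Same-numbered samples correlated over 0.1 in 10 of 18 pairs between groups. With the replicate number as a block, 25, 28, 29 and 24 members were called in the 4 comparisons and 3, 2 of them higher, in the interaction, with 2 lower in TAZKo in hypoxia (Ifit2 and Oasl1). No member call was lost with the block, and Gbp7 also passed as higher in hypoxia. Of 12 samples, 9 correlated best with their own number. Depth limits what can be said of members under about 1 CPM, such as Usp18, Mx1 and Ifi44.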

Other observations

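Genes of class II presentation were also measured, although fibroblasts are not professional antigen-presenting cells. Cd74, the invariant chain, was at 3.45, 2.54 and 3.69 CPM in normoxic WT cells, 9.76, 9.06 and 10.9 in normoxic TAZKo cells, 3.15, 3.14 and 2.87 in hypoxic WT cells and 11.7, 11.6 and 11.01 in hypoxic TAZKo cells. All 6 TAZKo values lay above all 6 WT values, by log2 1.61 (SE 0.13, adjusted p 5.86e-07) in normoxia and 1.904 (SE 0.13, adjusted p 1.60e-07) in hypoxia in the edgeR test. Ciita, the class II transactivator, stayed at or below 0.155 CPM, and H2-Aa at or below 0.224 CPM. H2-Ab1 was higher in TAZKo in normoxia by 0.803, and H2-DMa in hypoxia by 0.49, calls each lost in 4 of the 12 fits without 1 library. H2-DMb1 was higher in TAZKo in hypoxia by 0.42, and 27.2% of its words occur in another gene. With hypoxia H2-Ab1 fell (-1.18 in WT and -1.35 in TAZKo), and H2-DMb1 fell, with a log2 change of -0.67 (SE 0.09, adjusted p 3.56e-05) in WT and -0.28 (SE 0.09, adjusted p 0.0185) in TAZKo by edgeR. H2-DMa passed as falling in WT but as rising in TAZKo. In the 12 fits without 1 library its log2 change ran from -0.502 to -0.392 in WT and from 0.307 to 0.479 in TAZKo. Each of these 2 calls was lost in 4 of those fits. Calr, a chaperone of class I loading, was lower in TAZKo, with a log2 difference of -0.56 (SE 0.05, adjusted p 2.09e-06) and -0.55 (SE 0.05, adjusted p 2.80e-06), against the direction of Tapbp.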
